A study of Rattus norvegicus with 18 samples.

Results

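The expression of 10 genes of the brain endothelium and the blood-brain barrier was examined, out of 38445 genes counted in each library. They are Flt1 and Kdr, Tek and Tie1, Pecam1, Cdh5, Cldn5, Vwf, Slc2a1 and Abcb1a. They were chosen by symbol, with their measured CPM in the 3 treatment groups of these same libraries already known. All 10 were found among the counted genes, and all 10 passed the filter on low values. Their levels and changes are therefore given as a description and support no test.

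RNA came from whole dorsal hippocampus of 18 adult male wild-type Sprague Dawley rats, bought at an age of 75 to 85 days, so cells of every vessel type were mixed. The 6 control rats drank the Lieber-DeCarli liquid diet without ethanol. The 6 ethanol rats drank the same diet with 9% (v/v) ethanol and were taken at 0 h of withdrawal, and the 6 withdrawal rats were taken 24 h after a return from ethanol diet to control diet, with a diet period of 15 or 16 days by the sample labels. All 18 rats were housed singly and anesthetized with isoflurane before the brain was removed, and each library is 1 rat.

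Endothelial cells of brain capillaries are sealed to each other by tight and adherens junctions, carry nutrients across by dedicated carriers, and pump many drugs back into the blood. They are kept alive and sprouting or quiet by vascular endothelial growth factor (VEGF), which acts on the receptors Kdr and Flt1, and by the angiopoietins, which act on Tek. Pericytes, the basement membrane and astrocyte end-feet surround them. In RNA from whole tissue, fewer endothelial cells and less RNA per endothelial cell cannot be told apart.

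Gene counts summed to 30873228 in the shallowest library and 42679748 in the deepest, and a single one of the 10 genes had between 329 and 6008 counts in a rat. Levels are CPM, which is counts scaled to a common library size, after TMM scaling. Markers of the hippocampal subfields were present in every rat, with a summed level of 158.7 CPM in withdrawal rat 5, 287.8 in withdrawal rat 1 and at least 300.1 in the other rats. Markers of the choroid plexus, a tissue that lies beside the hippocampus and has its own fenestrated vessels, summed to 27.9 CPM in withdrawal rat 4 and 29.7 CPM in withdrawal rat 5 and to between 1064.2 and 5248.9 CPM in the other 16 rats. Libraries of the control rats all came from the first of 3 sets of index sequences, those of the ethanol rats and of withdrawal rats 1 and 2 from the second, and those of withdrawal rats 3 to 6 from the third. Index set and control diet cannot be told apart.

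Per kilobase of exon, the 10 genes were ordered in control rats from Slc2a1 at 42.2 CPM per kb and Cldn5 at 41.1 CPM per kb down to Kdr at 2.4 CPM per kb. The ranges of the 6 control rats overlapped for Slc2a1 and Cldn5. Both lay apart from Abcb1a at 10.3 CPM per kb, which in turn lay above Flt1 at 7.67 CPM per kb. From Flt1 through Vwf, Tie1, Pecam1 and Tek to Cdh5 at 4.7 CPM per kb, the ranges of neighbours overlapped at each step, and only Kdr stood apart below. The carrier of glucose and the main claudin of the barrier were thus the most abundant of these transcripts per length.

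Between withdrawal and control, 5 of the 10 genes passed q < 0.1, all of them higher in withdrawal: Kdr, Pecam1, Vwf, Flt1 and Slc2a1. Of all 17853 genes tested, 5.51% passed in this comparison, 3.14% as increases. The genes were chosen with this comparison known, so nothing is read from the 5 of 10. The median log2 fold change of the 10 genes was 0.16, against 0.0 for all genes tested. No gene of the 10 passed in withdrawal vs. ethanol, where 2.75% of all genes did, or in ethanol vs. control, where 0.65% did, in the same limma-voom model. As increases alone, 1.24% and 0.487% of all genes passed in these comparisons. At an unadjusted p under 0.05 the numbers were 2 and 3 of the 10 genes, against 16.8% and 12.4% of all genes. The quasi-likelihood test of edgeR called 0 in both comparisons, and DESeq2 called 0 and 1.

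The 5 calls rest on the surrogate variables, terms for unnamed variation that the fit takes from the expression values themselves. Without them 0 of the 10 genes passed in withdrawal vs. control in limma-voom and 0 in the quasi-likelihood test of edgeR, with 6 of 10 at an unadjusted p under 0.05 in both, against 12% and 12.9% of all genes. In DESeq2 1 of the 10 passed, and 435 of 17813 genes in all. Of all genes, 0.224% passed without surrogate variables in withdrawal vs. control, 3.44% in withdrawal vs. ethanol and 0.33% in ethanol vs. control. The count of the 10 genes was also 0 when withdrawal rat 6 was left out (4 at an unadjusted p under 0.05, and 14.1% of all genes) and 0 when withdrawal rats 4 and 5 were left out together (2 at an unadjusted p under 0.05, and 10.4% of all genes), and it was 2 without withdrawal rat 1. Calls among all genes fell alike, to 21 of 17828 without rat 6 and 7 of 17754 without rats 4 and 5, and 551 of 17816 passed without rat 1. Over these fits and all others that were run, the median log2 fold change of the 10 genes stayed between 0.14 and 0.21. Without surrogate variables the called genes stood at 0.32 (Pecam1), 0.56 (Kdr), 0.29 (Flt1), 0.30 (Vwf) and 0.19 (Slc2a1). Without withdrawal rats 4 and 5, Flt1 went from 0.28 to 0.17 and Slc2a1 from 0.22 to 0.14, and Pecam1 stood at 0.35, Kdr at 0.53 and Vwf at 0.30.

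**Figure D1:**
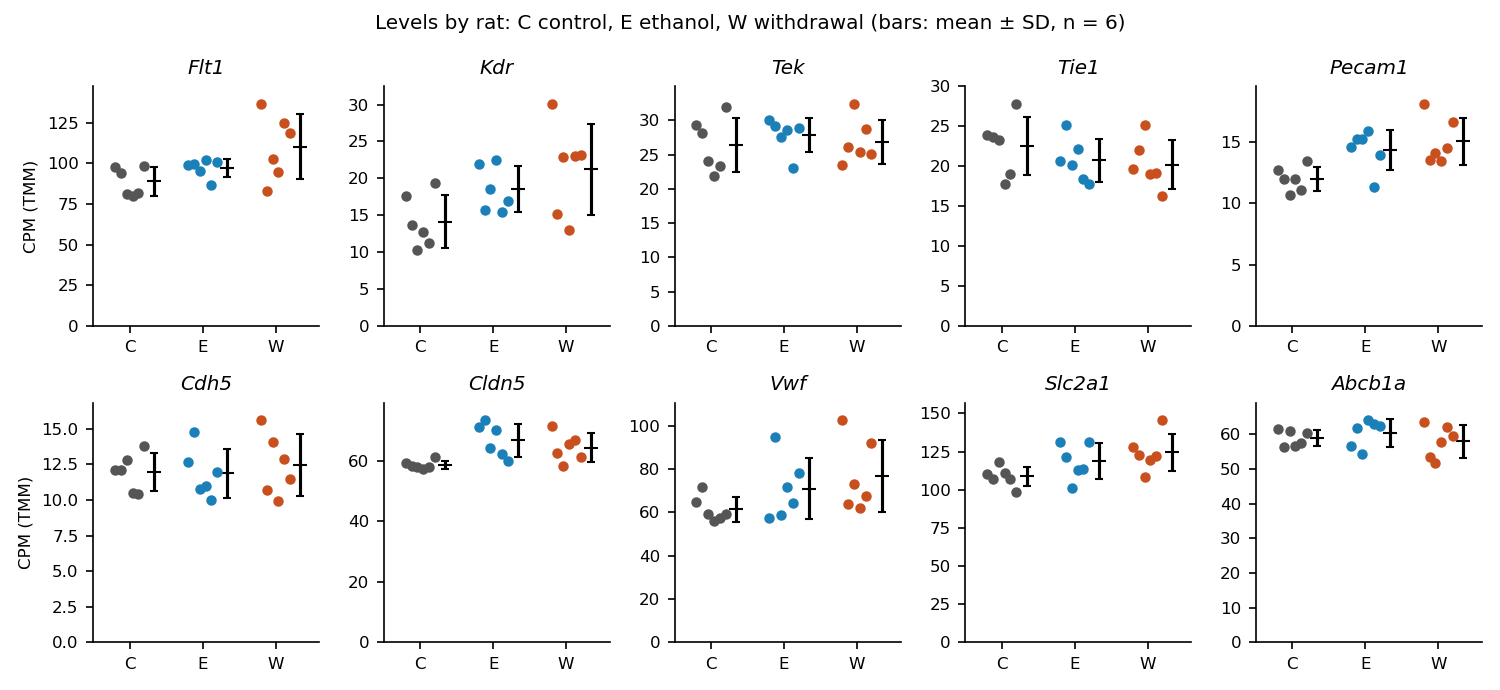
Level of each of the 10 genes in every rat, in TMM-scaled CPM from 0, with rats as points in the order of their replicate numbers and the mean ± SD (n = 6) as bars. Kdr, Flt1, Pecam1 and Vwf reach their highest level in 1 withdrawal rat, while Tek, Tie1, Cdh5 and Abcb1a overlap across the 3 groups.

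Kdr is the main signaling receptor for VEGF on endothelial cells (VEGFR2). Its level ran from 10.3 to 19.3 CPM in control rats with a median of 13.2, from 15.5 to 22.5 in ethanol rats with a median of 17.7, and from 13.0 to 30.1 in withdrawal rats with a median of 22.9. The means were 14.1 ± 3.59, 18.5 ± 3.08 and 21.2 ± 6.22 CPM (SD, n = 6). Withdrawal rats 1, 3, 5 and 6 exceeded the control range, while rats 2 and 4 lay within the control range, so that the groups overlapped. The fitted log2 fold change was 0.60 ± 0.13 (SE) in withdrawal vs. control, 0.26 ± 0.14 in ethanol vs. control, and 0.35 ± 0.14 in withdrawal vs. ethanol. Without surrogate variables the values were 0.56 ± 0.2, 0.42 ± 0.2 and 0.14 ± 0.18 in the same order. Ethanol vs. control was 0.14 without control rat 3 and 0.39 without ethanol rat 2, and withdrawal vs. ethanol was 0.22 without ethanol rat 2. Of the 10 genes, Kdr varied most among control rats and among withdrawal rats, with an SD of 25.4% and 29.3% of the mean, and Vwf varied most among ethanol rats, at 19.8%.

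Flt1 (VEGFR1) binds VEGF tightly and can hold it away from Kdr. It ran from 79.9 to 98.5 CPM in control rats with a median of 88.0, from 86.7 to 102.0 in ethanol rats with a median of 99.1, and from 83.2 to 136.6 in withdrawal rats with a median of 110.5. The lowest withdrawal rat, rat 2, lay inside the control range, as did rat 4, and the other 4 exceeded it. The fitted log2 fold change was 0.28 ± 0.075 in withdrawal vs. control, 0.11 ± 0.081 in ethanol vs. control and 0.18 ± 0.084 in withdrawal vs. ethanol. The last of these was 0.08 without withdrawal rat 6 and 0.28 without withdrawal rat 2, and ethanol vs. control was 0.07 without control rat 3. Flt1 and Kdr followed each other across the 18 rats, with r = 0.86 over all rats and 0.82 over the deviations from the group means.

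Tek, also called Tie2, is the receptor for the angiopoietins, and Tie1 is its partner. Tek ran from 21.9 to 32 CPM in control, 23.1 to 30 in ethanol and 23.4 to 32.4 in withdrawal, and its fitted log2 fold change in withdrawal vs. control was 0.02 ± 0.09. Withdrawal rat 1, the highest of the group for Kdr, Flt1, Pecam1, Cdh5, Cldn5, Vwf and Abcb1a, was the lowest for Tek. Tie1 was lower on average in withdrawal, at 20.2 ± 3.06 CPM against 22.6 ± 3.62 CPM in control, with a fitted log2 fold change of -0.17 ± 0.11 that did not pass and turned to 0.07 without withdrawal rats 4 and 5. Tek and Tie1 followed each other (r = 0.64 over rats and 0.73 over deviations), and neither followed Flt1 or Kdr as closely, with r from -0.12 to 0.41 over rats.

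Pecam1 is an adhesion molecule at contacts between endothelial cells and is also carried by platelets and leukocytes. It ran from 10.7 to 13.4 CPM in control rats with a median of 12, from 11.3 to 15.9 in ethanol rats with a median of 14.9, and from 13.4 to 18.1 in withdrawal rats with a median of 14.3. Every withdrawal rat was above every control rat, but only just, since the lowest of one group and the highest of the other were both 13.4 CPM to 3 digits. It was the only one of the 10 genes whose groups did not overlap in this comparison, where 0.605% of all genes had every withdrawal rat above every control rat and 0.465% had every one below. None of the 10 genes separated the groups in withdrawal vs. ethanol, where 0.605% of all genes did as higher and 0.594% as lower, or in ethanol vs. control, where 1.01% did as higher and 0.375% as lower. The fitted log2 fold change was 0.34 ± 0.069 in withdrawal vs. control, 0.21 ± 0.076 in ethanol vs. control and 0.13 ± 0.076 in withdrawal vs. ethanol. The last of these ran from 0.05 to 0.17 when 1 rat was left out. In 5 of 6 ethanol rats Pecam1 was above the highest control rat, and ethanol rat 5 was the exception.

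Cdh5, the adherens junction cadherin of endothelium, had nearly the same mean in the 3 groups, at 12 ± 1.31, 11.9 ± 1.71 and 12.5 ± 2.14 CPM. Its fitted log2 fold change was 0.04 ± 0.071 in withdrawal vs. control and -0.01 ± 0.077 in ethanol vs. control. Cldn5, the claudin that closes tight junctions of brain endothelium to small molecules, was the steadiest gene in control rats, from 57.2 to 61.2 CPM, an SD of 2.44% of the mean. It ran from 60.1 to 73.4 CPM in ethanol rats and from 58.4 to 71.6 CPM in withdrawal rats, and 5 ethanol rats and 4 withdrawal rats exceeded the control range. The fitted log2 fold change of Cldn5 was 0.18 ± 0.049 in ethanol vs. control and 0.11 ± 0.046 in withdrawal vs. control. Neither passed, although Cldn5 passed in ethanol vs. control in DESeq2 and with sample quality weights.

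Vwf, the clotting protein that endothelial cells store and release, ran from 56.1 to 71.5 CPM in control rats with a median of 59.4, from 57.5 to 94.8 in ethanol rats with a median of 68.0 and from 62.2 to 102.5 in withdrawal rats with a median of 70.2. In withdrawal, rat 1 stood at 102.5 CPM and rat 6 at 92.1 CPM, and the other 4 rats lay between 62.2 and 73.1 CPM. The fitted log2 fold change was 0.34 ± 0.094 in withdrawal vs. control and 0.25 ± 0.1 in ethanol vs. control. When 1 rat was left out, the first ran from 0.26 to 0.42 and the second from 0.15 to 0.33. Without withdrawal rat 1 the withdrawal mean was 71.8 CPM in place of 76.9 CPM.

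Slc2a1 encodes the glucose carrier GLUT1, which is dense in barrier endothelium and is also made by astrocytes and other cells. It ran from 98.2 to 118.0 CPM in control rats, from 101.1 to 131.5 in ethanol rats and from 108.6 to 145.5 in withdrawal rats. The highest withdrawal rat was rat 6, and 5 of 6 withdrawal rats lay above 118 CPM. The fitted log2 fold change in withdrawal vs. control was 0.22 ± 0.068. Its q of 0.0986 lay just inside the threshold, and the call held in 1 of 13 fits with another setting and 6 of 18 fits that left out 1 rat. Abcb1a encodes P-glycoprotein, the drug efflux pump on the blood side of the endothelium, and varied little, with means of 58.9 ± 2.38, 60.5 ± 3.93 and 58.1 ± 4.72 CPM and a fitted log2 fold change of -0.04 ± 0.056 in withdrawal vs. control. Its paralogue Abcb1b lies beside it and is close in sequence, and read pairs that fit both were not counted, so the split between them is uncertain.

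**Figure D2:**
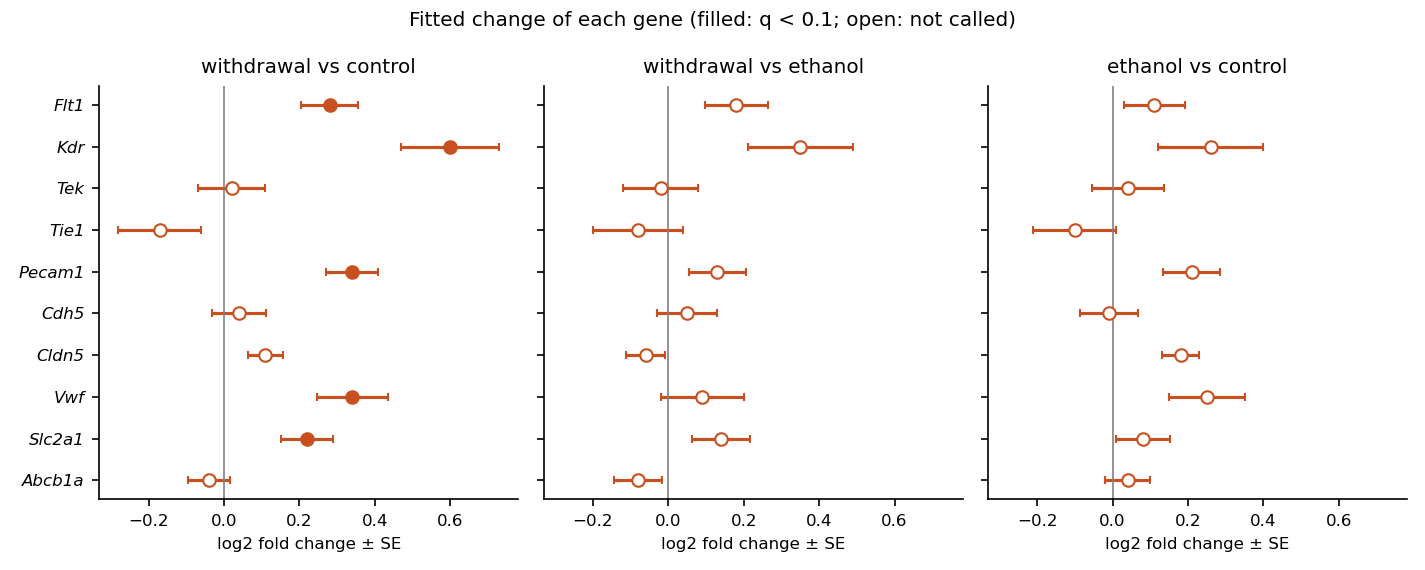
Fitted log2 fold change (x axis) of each of the 10 genes (y axis) in the 3 comparisons, as points with SE bars, filled where q < 0.1 in limma-voom with 3 surrogate variables. The 5 filled points, from 0.22 for Slc2a1 to 0.60 for Kdr, are all in the comparison of withdrawal with control.

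Across the 45 pairs of these genes, the median correlation of log2 CPM over the 18 rats was 0.37, from -0.54 for Tie1 and Slc2a1 to 0.86 for Flt1 and Kdr. Over the deviations from the group means it was 0.33, and 13 pairs exceeded 0.5. The correlation of the 10 genes with all other genes had a median of 0.01, and of 0.0 over the deviations. The points share libraries and scaling, and these are descriptions. When each gene was standardized over the 18 rats and the 10 were averaged, withdrawal rat 1 stood highest at 1.23 SD and ethanol rat 2 next at 0.89 SD, while control rats 4 and 5 stood lowest at -1.06 and -1.03 SD. Of 11 summed marker lists, that average rose most closely with pericyte and smooth muscle markers (r = 0.66, rho = 0.75 over 18 rats) and fell most closely with neuron markers (r = -0.63, rho = -0.79). Over the deviations from the group means these were r = 0.63 and r = -0.70. The other lists ran from r = -0.57 for leukocyte and -0.49 for hippocampal subfield markers, through -0.38 for red cell, -0.02 for microglia, 0.02 for choroid plexus and 0.04 for end-foot markers, to 0.41 for fibroblast and 0.42 for platelet markers, with oligodendrocyte markers at 0.0. The neuron sum ran from 4382.7 to 5011.8 CPM in control, 3796.6 to 5497.2 in ethanol and 4257.3 to 5237.9 in withdrawal, and its part in the levels of the 10 genes was not tested. The average of the 10 genes had a correlation of -0.57 with the second surrogate variable, -0.32 with the first and -0.34 with the third.

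**Figure D3:**
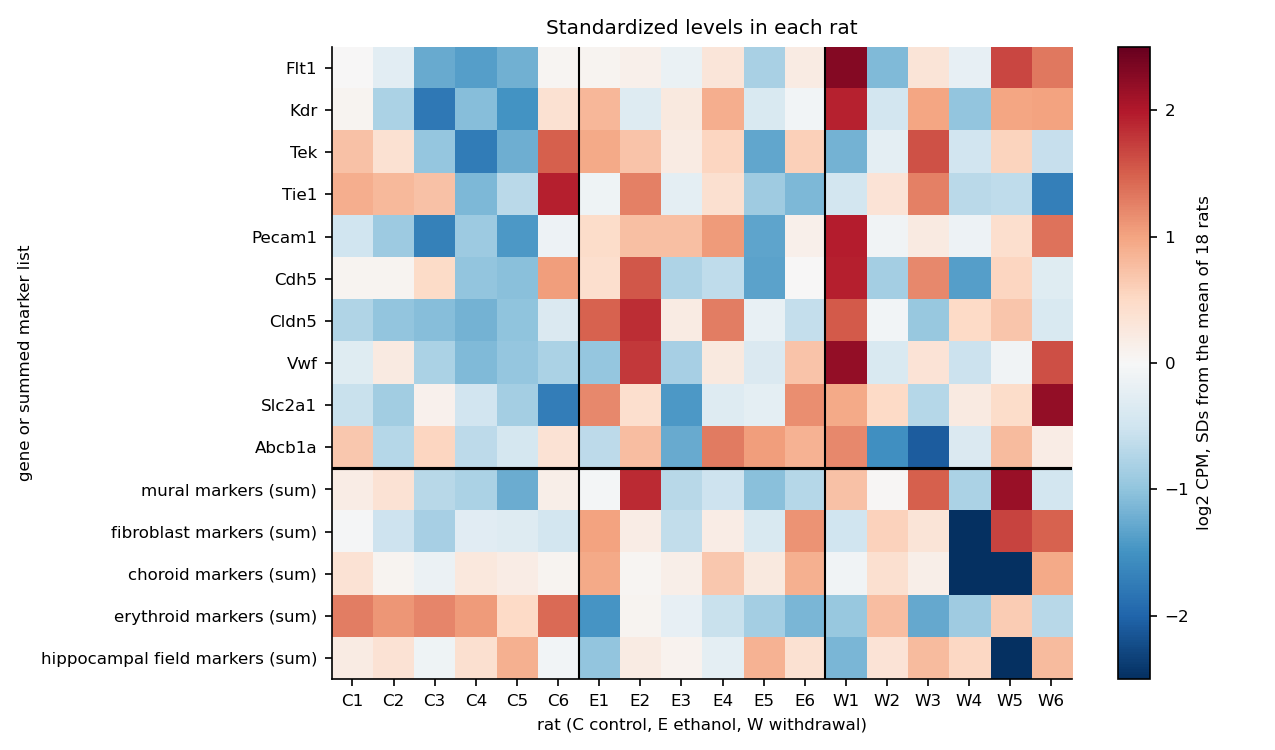
Standardized log2 CPM of the 10 genes and of 5 summed marker lists (rows) in each rat (columns), as SDs from the mean of 18 rats, with colours capped at 2.5 SD in both directions. Withdrawal rat 1 is the highest of its group in 7 of the top 10 rows, control rats 4 and 5 are below the mean in all 10, choroid plexus markers are at the lower cap in withdrawal rats 4 and 5, and red cell markers are above the mean in all 6 control rats and in ethanol rat 2 and withdrawal rats 2 and 5.

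The 8 genes whose log2 CPM was most like the average of the 10 genes over 18 rats were Bmp2 (r = 0.87), Plekhh3 (0.86), Nfkb1 (0.85), Hdac7 (0.85), Man2a1 (0.84), Ripk1 (0.84), Macroh2a1 (0.84) and Msn (0.83). Over the deviations from the group means they were Tagln2 (0.87), Msn (0.86), Fam193a (0.86), Gimap8 (0.84), Plekhh3 (0.84), Dhx29 (0.84), Ednra (0.83) and Bmp2 (0.83). Bmp2, Plekhh3 and Msn were in both sets of 8. They were taken from the top of 17843 correlations and none was in a list used here.

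In the Rnor_6.0 assembly that the counts use, the 2 VEGF receptor genes lie on chromosome 12, 9033993 to 9205886 on the plus strand (Flt1), and on chromosome 14, 34727677 to 34787127 on the plus strand (Kdr). Tek lies on chromosome 5, 113725717 to 113852799 on the plus strand, with Tie1 on the same chromosome at 137294544 to 137321116 on the minus strand and Slc2a1 close to it at 138154677 to 138182897 on the plus strand. Pecam1 lies on chromosome 10, 94850971 to 94913202 (minus), Cldn5 on chromosome 11, 86356292 to 86357718 (minus), and Cdh5 on chromosome 19, 1025122 to 1074333 (minus). On chromosome 4 lie Vwf, 158085059 to 158219525 (plus), and Abcb1a, 22339829 to 22517642 (minus). Counts were taken over all annotated exons of each gene.

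The RefSeq table of promoters (assembly GRCr8) held 6 of the 10 genes: Cldn5, Flt1, Kdr, Tie1, Slc2a1 and Abcb1a. The 250 bases before the annotated start are shown for the 3 of them that passed in withdrawal vs. control, and for Tie1, which had the lowest fold change. Capitals mark the core letters of the hypoxia response element, ACGTG or GCGTG, on either strand, to which hypoxia-inducible factors can bind. The windows are chr12:12333180-12333429 (plus) for Flt1, chr14:32571813-32572062 (plus) for Kdr, chr5:138002272-138002521 (plus) for Slc2a1 and chr5:137304982-137305231 (minus) for Tie1, each written 5′ to 3′ on the strand of the gene.
Flt1: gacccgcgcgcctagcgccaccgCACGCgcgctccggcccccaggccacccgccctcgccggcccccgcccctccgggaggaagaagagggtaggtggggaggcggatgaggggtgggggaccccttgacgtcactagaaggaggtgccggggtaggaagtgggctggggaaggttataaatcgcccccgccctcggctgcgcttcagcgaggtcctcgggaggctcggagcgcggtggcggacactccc
Kdr: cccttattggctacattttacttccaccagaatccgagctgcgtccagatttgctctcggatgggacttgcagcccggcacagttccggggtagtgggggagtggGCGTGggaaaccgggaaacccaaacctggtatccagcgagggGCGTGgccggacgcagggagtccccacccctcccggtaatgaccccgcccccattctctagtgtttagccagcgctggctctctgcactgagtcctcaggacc
Slc2a1: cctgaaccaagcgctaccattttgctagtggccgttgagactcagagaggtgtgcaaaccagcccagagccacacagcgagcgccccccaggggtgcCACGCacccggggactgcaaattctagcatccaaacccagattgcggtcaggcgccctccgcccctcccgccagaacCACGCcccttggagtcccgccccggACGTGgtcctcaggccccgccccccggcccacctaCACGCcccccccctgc
Tie1: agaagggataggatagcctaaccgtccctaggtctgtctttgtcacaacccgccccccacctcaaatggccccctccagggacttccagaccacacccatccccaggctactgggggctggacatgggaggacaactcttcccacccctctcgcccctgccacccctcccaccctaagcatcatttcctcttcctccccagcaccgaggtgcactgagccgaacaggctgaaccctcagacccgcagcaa

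Flt1 held 1 such match, Kdr 2 and Slc2a1 4, and Cldn5, Tie1 and Abcb1a held none in this window. Of 33469 rat promoters of the same length, 36.7% held at least 1. The motif was one of 6 kinds searched on both strands and was chosen for display after the matches were seen, and its matches overlapped none of the others. The GC box (GGGCGG) was in all 6 windows and in 30.5% of all promoters. The ETS core (AGGAAG or CGGAAG) was in Flt1 and Tie1 and in 39.4% of all promoters, the CCAAT box (CCAAT) in Cldn5 and Kdr against 34%, the TATA box (TATAAA) in Flt1 against 12.9%, and the FOX:ETS letters AACAGGAA in none against 2.14%. The share of G and C was 73.2% in Flt1, 68.4% in Slc2a1 and 61.6% in both Kdr and Tie1.

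Around the 10 genes, 143 other genes of endothelium and barrier were followed in 8 lists, of which 139 passed the filter. Between withdrawal and control, 20 of the 139 passed q < 0.1, all of them higher in withdrawal, which is 14.4% against 5.51% of all genes tested. Their median log2 fold change was 0.1 against 0.0 for all genes. Between withdrawal and ethanol 4 of the 139 passed (2.88% against 2.75%), and in ethanol vs. control 1 passed (0.719% against 0.65%), again all higher. The lists too were made with some results of these libraries known. Without surrogate variables 0 of the 139 passed in withdrawal vs. control in limma-voom (32 at an unadjusted p under 0.05, against 12% of all genes) and 0 in the quasi-likelihood test (38 at an unadjusted p under 0.05, against 12.9%), where 40 and 39 of all 17853 genes passed, and 11 passed in DESeq2, which called 435 of 17813 genes in all. The count was 0 without withdrawal rat 6 (43 of 138 at an unadjusted p under 0.05, against 14.1% of all genes) and 0 without withdrawal rats 4 and 5 (35 of 139 at an unadjusted p under 0.05, against 10.4%). In these fits 21 and 7 of all genes passed.

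**Figure D4:**
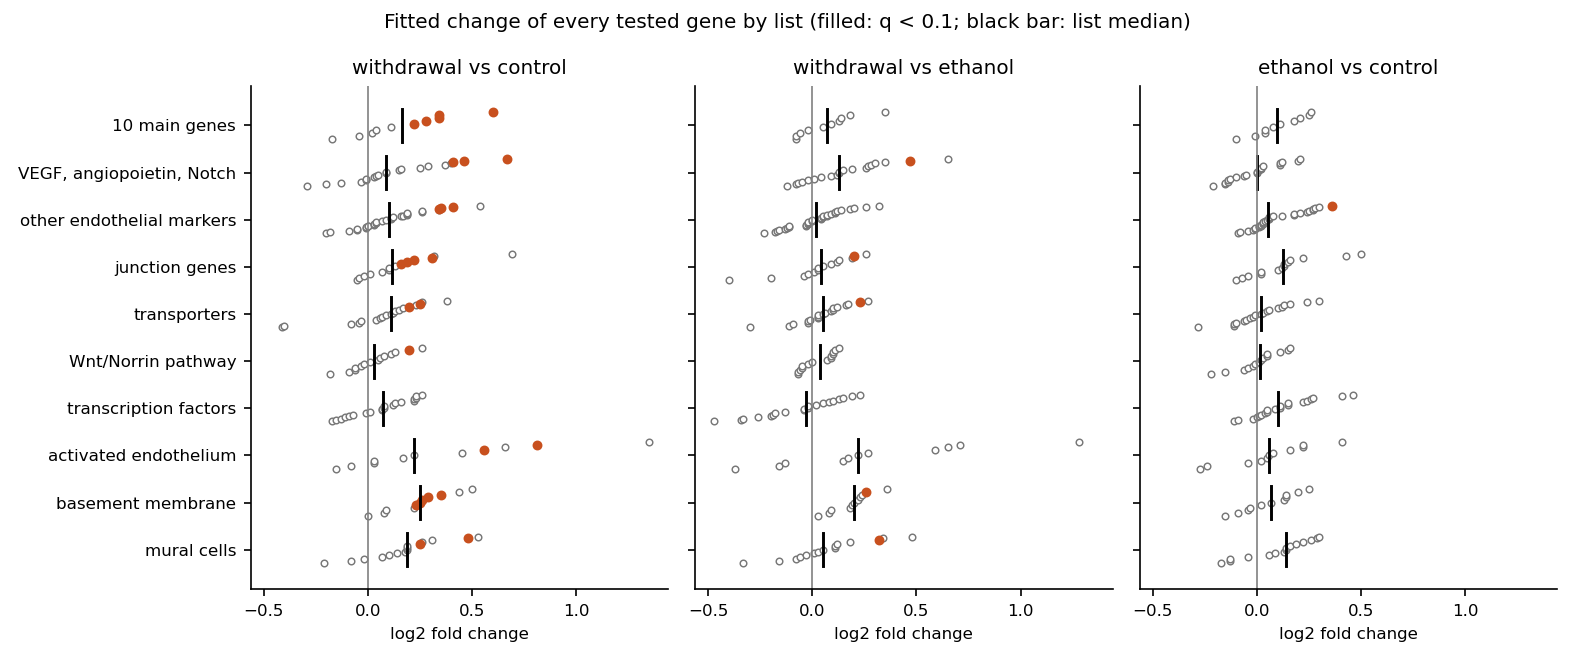
Fitted log2 fold change (x axis) of every tested gene in the 10 main genes, the 8 lists of other endothelial and barrier genes and the mural cell list (y axis), for the 3 comparisons. Filled points passed q < 0.1 in limma-voom with 3 surrogate variables, and black bars are list medians, the highest of which in withdrawal vs. control is 0.25 for the basement membrane.

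Of the 20 ligands, co-receptors and partners of the VEGF, angiopoietin and Notch pathways, 3 rose in withdrawal vs. control: Vegfa, Angpt2 and Flt4. The share was 15%, against 3.14% for increases among all genes. Vegfa, the ligand of Flt1 and Kdr, ran from 135.4 to 171.2 CPM in control rats, from 131.1 to 154.1 in ethanol rats and from 151.8 to 289.6 in withdrawal rats. All withdrawal rats but rat 2 exceeded both other groups, and rat 2 lay within both ranges. Its log2 fold change was 0.41 ± 0.1 (q = 0.0466) against control and 0.47 ± 0.12 (q = 0.061) against ethanol in limma-voom with 3 surrogate variables. Without them it was 0.45 ± 0.11 (q = 0.136) against control and 0.53 ± 0.11 (q = 0.0474) against ethanol in limma-voom. Vegfa was thus called in withdrawal vs. ethanol with and without surrogate variables, and in 9 of 14 fits with another setting. Its receptors Flt1 (0.18 ± 0.084) and Kdr (0.35 ± 0.14) were not called there with or without surrogate variables. A difference between the ligand and its receptors was not tested.

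Angpt2, an angiopoietin that loosens vessels by competing at Tek, had a mean of 5.76 ± 2.33 CPM in withdrawal against 3.46 ± 0.37 CPM in control. Every withdrawal rat was above every control rat, as for 0.605% of all genes. Withdrawal rat 1 stood at 10.3 CPM, and without it the withdrawal mean was 4.85 ± 0.792 CPM. The log2 fold change was 0.67 ± 0.18 (q = 0.0588, limma-voom). Flt4, the receptor for VEGF-C, was low throughout, at 2.63 ± 0.699 CPM in withdrawal against 1.91 ± 0.18 CPM in control (log2 fold change 0.46 ± 0.13, limma-voom q = 0.0767). Angpt1, which activates Tek, had a log2 fold change of 0.09 ± 0.087, the second Flt1 ligand Pgf one of -0.01 ± 0.18, the VEGF co-receptor Nrp1 one of 0.03 ± 0.057, and Ptprb, the phosphatase that acts on Tek, one of -0.03 ± 0.073, and none of them passed.

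Among 30 other endothelial markers, Egfl7, Eng and Emcn rose in withdrawal vs. control and Eng alone in ethanol vs. control. In these comparisons 3.14% and 0.487% of all genes rose. Eng (endoglin), a co-receptor for TGF-beta family ligands, ran from 19 to 24.8 CPM in control, from 25.6 to 29.7 in ethanol and from 22.4 to 33 in withdrawal. Every ethanol rat was above every control rat, as for 1.01% of all genes, and the log2 fold change was 0.36 ± 0.072 (q = 0.0721, limma-voom) in ethanol vs. control and 0.35 ± 0.067 (q = 0.0199, limma-voom) in withdrawal vs. control. Between withdrawal and ethanol the log2 fold change of Eng was -0.02 ± 0.072. Emcn, a sialomucin of capillary and venous endothelium, was above the control range in all 6 ethanol rats and all 6 withdrawal rats, as for 1.01% and 0.605% of all genes. Its means were 7.64 ± 0.659, 9.39 ± 1.13 and 9.57 ± 0.828 CPM in control, ethanol and withdrawal, and it passed only in withdrawal vs. control (0.34 ± 0.084, q = 0.0481, limma-voom). Egfl7, a secreted factor of endothelium, rose from 11.8 ± 1.56 CPM in control to 15.9 ± 2.12 CPM in withdrawal (0.41 ± 0.091, q = 0.0296, limma-voom). The adhesion molecule Icam2 had a log2 fold change of 0.0 ± 0.13 and did not pass.

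**Figure D5:**
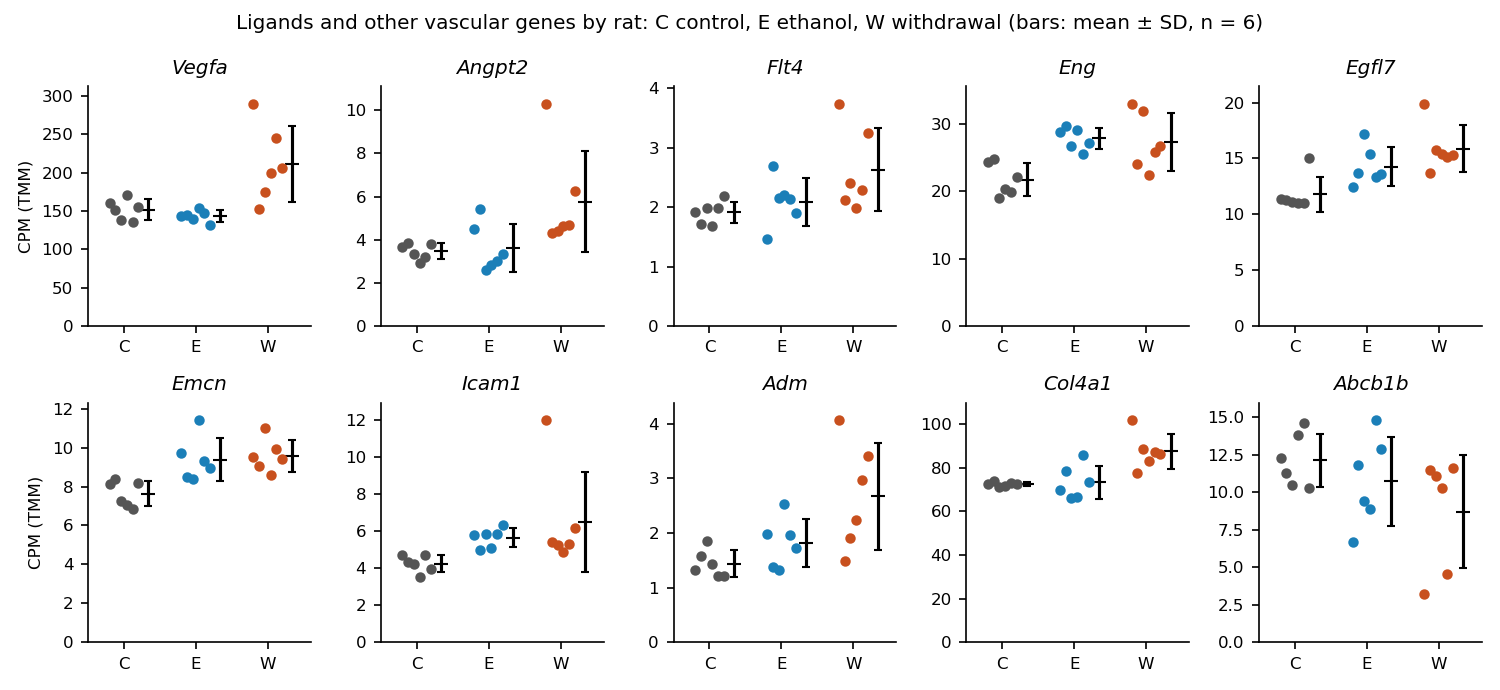
Level of 10 ligands and other vascular genes in every rat, in TMM-scaled CPM from 0, with the mean ± SD (n = 6) as bars. Vegfa is high in 5 of 6 withdrawal rats, Eng, Emcn and Icam1 are above the control range in all ethanol rats, and Angpt2 and Icam1 each have 1 withdrawal rat far above the rest.

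Of 11 genes of activated or leaky endothelium, Icam1 and Adm rose in withdrawal vs. control, where 3.14% of all genes rose. Icam1, which holds leukocytes to activated endothelium, ran from 3.52 to 4.72 CPM in control, from 4.97 to 6.35 in ethanol and from 4.89 to 12 in withdrawal. All ethanol and all withdrawal rats were thus above all control rats, as for 1.01% and 0.605% of all genes. The log2 fold change of Icam1 was 0.56 ± 0.16 (q = 0.0774, limma-voom) in withdrawal vs. control, and the withdrawal mean fell from 6.51 to 5.41 CPM without rat 1. In ethanol vs. control Icam1 did not pass (0.41 ± 0.18, q = 0.346, limma-voom). Adm (adrenomedullin, a peptide that widens vessels) was at 2.68 ± 0.977 CPM in withdrawal and 1.44 ± 0.246 CPM in control (0.81 ± 0.24, q = 0.0816, limma-voom). Withdrawal rat 2, at 1.48 CPM, lay inside the control range, and withdrawal rat 1 was highest at 4.06 CPM. The call of Adm held in 9 of 18 fits that left out 1 rat, and its q was 0.211 without surrogate variables (limma-voom). Plvap, which forms the diaphragms of fenestrated vessels and is low in barrier endothelium, did not pass (0.03 ± 0.12), and its level had r = -0.94 and rho = -0.95 with the second surrogate variable over the 18 rats. Without surrogate variables its log2 fold change was 0.02 ± 0.37.

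Of 11 basement membrane genes, 5 rose in withdrawal vs. control and none fell, where 3.14% of all genes rose, and their median log2 fold change was 0.25. Without surrogate variables 0 of the 11 passed in limma-voom, with 5 at an unadjusted p under 0.05 against 12% of all genes, and the median was 0.21. Col4a1, a chain of type IV collagen, lay between 71.2 and 73.7 CPM in control rats and between 77.4 and 101.7 CPM in withdrawal rats, with no overlap (0.26 ± 0.057, q = 0.0282, limma-voom). Such separation upward held for 0.605% of all genes. Lama5 rose by 0.35 ± 0.093 and Sparc, a collagen-binding protein, by 0.29 ± 0.067 on the log2 scale. For Lama5 the value was 0.19 ± 0.22 without surrogate variables. Lama5 stood at 10.2 CPM in withdrawal rat 4 and 32.8 CPM in withdrawal rat 6, the rats with the lowest and the highest choroid plexus sum, and 2 of 6 withdrawal rats exceeded the control range. The part of choroid plexus in its value was not tested. Lamc1, a laminin chain, rose against control (0.23 ± 0.057) and against ethanol (0.26 ± 0.064, q = 0.0636, limma-voom). Lama4 was the fifth.

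Among 14 further junction genes, those that rose in withdrawal vs. control included Cgnl1, Lsr and Esam. Cgnl1 (paracingulin) had a log2 fold change of 0.31 ± 0.088 with surrogate variables and 0.07 ± 0.27 without, and stood at 28.0 CPM in withdrawal rat 4 and 120.8 CPM in withdrawal rat 6, the rats with the lowest and the highest choroid plexus sum. The part of choroid plexus in that value was not tested. Esam, an endothelial adhesion molecule, changed by 0.19 ± 0.057 and Lsr, a protein of tricellular junctions, by 0.22 ± 0.069. Their q in limma-voom were 0.0899 and 0.0927, near the threshold. The calls held in 2 (Esam) and 1 (Lsr) of 13 fits with another setting. Each held in 7 of 18 fits that left out 1 rat. Ocln (occludin) at 0.07 ± 0.075 and Tjp1 (ZO-1) at 0.01 ± 0.038 did not pass.

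Of 19 further transporters, Slco1c1 and Slc7a5 rose in withdrawal vs. control, where 3.14% of all genes rose. Slc7a5, the carrier of large neutral amino acids, ran from 50.9 to 58.5 CPM in control, from 46.8 to 55.2 in ethanol and from 56.8 to 63.8 in withdrawal. Every withdrawal rat was above every ethanol rat, as for 0.605% of all genes, and the log2 fold change was 0.23 ± 0.056 (q = 0.0633, limma-voom) against ethanol and 0.20 ± 0.05 (q = 0.0485, limma-voom) against control. Slco1c1, a carrier of thyroid hormone, was at 103.2 ± 10.8 CPM in withdrawal, 104.4 ± 15.5 CPM in ethanol and 88.0 ± 4.15 CPM in control (0.25 ± 0.066 in withdrawal vs. control). The lipid carrier Mfsd2a (0.23 ± 0.12), the efflux pump Abcg2 (0.38 ± 0.21) and Abcb1b (-0.41 ± 0.14) did not pass. Abcb1b ran from 10.3 to 14.6 CPM in control rats and was 3.22 CPM in withdrawal rat 1, 4.58 CPM in withdrawal rat 5 and 6.66 CPM in ethanol rat 1, the 3 rats with the lowest sums of hippocampal subfield markers.

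Of 14 genes of the Wnt and Norrin pathway, which induces the barrier in development, only Tspan12, a partner of the receptor Fzd4, rose (0.20 ± 0.058, q = 0.0778, limma-voom). That was in withdrawal vs. control, with 7.14% of the list called against 5.51% of all genes, and 3.14% of all genes as increases. None of 20 transcription factors of endothelium passed in limma-voom in any comparison, with 3, 2 and 3 of them at an unadjusted p under 0.05 in withdrawal vs. control, withdrawal vs. ethanol and ethanol vs. control, against 19.8%, 16.8% and 12.4% of all genes. Neither edgeR nor DESeq2 called any. Erg, which keeps endothelial identity, had a log2 fold change of 0.22 ± 0.094 and Sox17, a factor of arterial endothelium, one of -0.11 ± 0.086.

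Markers of neighbouring cells moved with the groups in part. Of 15 mural cell markers, Des and Pdgfrb rose in withdrawal vs. control (0.48 ± 0.15 and 0.25 ± 0.07, with Des at 23.4 CPM in withdrawal rat 1) and Abcc9 in withdrawal vs. ethanol (0.32 ± 0.086), and the summed mural level ran from 250.9 to 327.6 CPM in control, 258.8 to 422.9 in ethanol and 270.4 to 444.0 in withdrawal. Of 10 end-foot genes, Gfap rose against control (0.54 ± 0.16) and against ethanol (0.74 ± 0.17) and Gja1 fell against control (-0.13 ± 0.039). Without surrogate variables none of the mural calls and none of the end-foot calls against control passed in limma-voom, with q from 0.233 to 0.612, Abcc9 stood at 0.21 ± 0.12, and Gfap against ethanol still passed (q = 0.0761, limma-voom). Des was 0.27 without withdrawal rat 1 and was called in 7 of 18 fits that left out 1 rat. Of all genes, 5.51% passed in withdrawal vs. control and 2.75% in withdrawal vs. ethanol. Of 5 red cell genes, 5 fell in ethanol vs. control and 5 in withdrawal vs. control, Hbb by 1.59 ± 0.29 and 1.51 ± 0.27 on the log2 scale, and the red cell sum ran from 128.2 to 226.9 CPM in control, 37.3 to 97.4 in ethanol and 42.1 to 151.9 in withdrawal. None of 7 fibroblast, 7 microglia, 5 choroid plexus, 5 oligodendrocyte, 5 hippocampal subfield, 3 platelet and 2 leukocyte genes tested passed in limma-voom in any comparison, with 6, 6 and 3 of these 34 at an unadjusted p under 0.05 in withdrawal vs. control, withdrawal vs. ethanol and ethanol vs. control, against 19.8%, 16.8% and 12.4% of all genes. For them the quasi-likelihood test called 0, 1 and 0 and DESeq2 called 1, 2 and 0. Platelet markers summed to between 2.9 and 5.16 CPM and leukocyte markers to between 6.35 and 18.4 CPM in every rat. Of 6 neuron genes, Gad2 rose in withdrawal vs. ethanol (0.35 ± 0.084). The part of these cells in the changes of the 10 genes was not tested.

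Within the index set shared by ethanol and withdrawal, only withdrawal rats 1 and 2 could be set against the 6 ethanol rats, and 0 of the 10 genes passed in limma-voom, with 0 at an unadjusted p under 0.05. None of all 17519 genes tested there passed either, with 6.08% at an unadjusted p under 0.05, so nothing is read from the 0. Fold changes there ran, on the log2 scale, from -0.16 for Tek to 0.22 for Vwf, with Abcb1a at -0.05 and Cldn5 at 0.01. The mean of Kdr was 22.6 CPM in the 2 withdrawal rats and 18.5 CPM in ethanol, but the rats lay on both sides of the ethanol mean, rat 1 at 30.1 CPM and rat 2 at 15.1 CPM. The same held for Pecam1, at 18.1 and 13.5 CPM against 14.3, and for Vwf, at 102.5 and 64.0 CPM against 70.9, so that without rat 1 the direction of all 3 turned. No rat on control diet shared an index set with another group, so no such value exists for comparisons with control.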

How the data were processed

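Paired-end libraries of poly(A) RNA from 18 rats were stranded. The authors aligned reads with STAR 2.5.2a to Rnor_6.0 (NCBI annotation 106) and deposited raw counts of read pairs per gene from featureCounts 1.5.0, by strand, without pairs that map to several places. Of 38445 gene IDs, 29322 were named from the RefSeq table of GRCr8, used for names only.

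From these counts, TMM-scaled CPM were computed with edgeR 4.0.16, and genes over 0.5 CPM in 1 rat or more were kept. All groups entered 1 limma-voom model (limma 3.58.1, R 4.3.3) with 3 surrogate variables (sva 3.50.0, log2 CPM with a prior count of 2), as the study adjusted its model too. Two-sided p were adjusted by the Benjamini-Hochberg method within each comparison and called at q < 0.1. The script was tested on simulated data. Groups of rats were compared by their labels. In the model with surrogate variables, p-values measure the spread between rats that remains after these terms, not the full spread. No 2 rats of a group matched within sampling noise (lowest chi-square per degree of freedom 5.668 over 45 pairs).

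The 10 genes, the 8 lists of other endothelial genes and the 11 lists of other cells were chosen with earlier results of these data known. In each list and comparison the text names up to 3 called genes in each direction by size of change, plus 16 partner genes whatever their values. Lama4 completes a count and was named after its values were seen. The values of 1 gene that the rule names are not reported here. Promoter windows were 250 bases. Alternatives were other numbers of surrogate variables, edgeR's quasi-likelihood test, DESeq2 1.42.0, other scalings, filters and thresholds, quality weights, a replicate block, and fits that each dropped 1 rat. Leaving out withdrawal rats 4 and 5 was chosen after seeing the data.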

Additional observations from a re-analysis of the deposited data

Results flagged for a closer look

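In 12 of 153 groups of 6 rats examined, 1 rat stood far from the others (7.84%, where chance gives about 1 in 20), by the gap to its nearest neighbour over the range of the group. Among the 10 main genes this held once, for Tek at 23.1 CPM in ethanol rat 5. Withdrawal rat 1 stood apart for Angpt2 at 10.3 CPM, Egfl7 at 19.9 CPM, Icam1 at 12 CPM and Des at 23.4 CPM, each the highest of its group. Withdrawal rat 5 stood apart for Gfap at 640.2 CPM, Nrp1 at 73.7 CPM and Tjp1 at 202.4 CPM, each the lowest. Control rat 6 stood apart for Egfl7 at 15.0 CPM and Plvap at 8.95 CPM, both high, and for Gja1 at 352.7 CPM, low. Control rat 3 stood apart for Slc7a5 at 58.5 CPM. The causes were not tested.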

How the results depend on the processing

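The counts of calls depended on the processing. In withdrawal vs. control, 5 of the 10 genes and 20 of the 139 other endothelial and barrier genes were called. The counts were 3 and 10 with 2 surrogate variables, 1 and 5 with 5, 0 and 0 with none, 1 and 11 in DESeq2, 0 and 0 in the quasi-likelihood test of edgeR, 2 and 11 with no filter on low counts, 2 and 8 at q < 0.05, and 0 and 0 without withdrawal replicates 4 and 5, a setting chosen after seeing the data. Calls among all genes went from 983 to 575, 265, 40, 435, 39 and 486 in the first 6 of these settings, and to 7 in the last. In withdrawal vs. ethanol, the 4 calls among the other genes became 9 with 5 surrogate variables, 11 in DESeq2, 9 with sample quality weights, and 0 with no filter, with only the 2 groups compared, within the shared index set and at q < 0.05. Calls among all genes moved alike, from 491 to 879, 1443 and 1089, and to 166 with no filter and 0 with only the 2 groups compared or within the index set. In ethanol vs. control, the 1 call among them became 3 with 5 surrogate variables, 4 in DESeq2, 2 with quality weights, 2 without withdrawal replicates 4 and 5, and 0 with 2 or no surrogate variables, in the quasi-likelihood test, with no filter, with only the 2 groups compared and at q < 0.05, and 1 of the 10 genes was called in DESeq2 and 1 with quality weights. There 116 calls among all genes became 351 with 5 surrogate variables, 431 in DESeq2 and 451 with quality weights. Leaving out 1 rat gave 0 to 5 of the 10 genes and 0 to 30 others in withdrawal vs. control, 0 to 2 and 0 to 17 in withdrawal vs. ethanol, and 0 and 0 to 2 in ethanol vs. control. The lowest counts in withdrawal vs. control came without withdrawal rat 6, and 2 of the 10 genes were called without withdrawal rat 1 and 2 without control rat 4. No result called in the model used here changed its direction in any setting. The cause of these differences was not tested.

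Whether the replicate numbers pair the rats could not be settled. The paper states that rats were pair fed, but the sample labels name no pairs, and correlations between libraries cannot exclude pairing. Of 18 same-number pairs, 4 had a correlation of deviations over 0.1 (range -0.32 to 0.38), and 5 of 18 rats correlated best with their own number. With a replicate block and 3 surrogate variables, 4 of the 10 genes and 16 of the 139 others were called in withdrawal vs. control, of 826 of 17853 genes in all. It called 0 of the others in withdrawal vs. ethanol and 0 in ethanol vs. control, where it called 2 and 24 genes in all.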
